A study of Mus musculus with 6 samples.

Results

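Mature Ccr7-positive CD8 thymocytes were taken from 2 thymus single-cell libraries by their raw counts of unique molecular identifiers (UMIs). The cells were selected on measured values. A barcode first needed 500 genes or more, 1000 UMIs or more, and mitochondrial UMIs of no more than 20%. It then needed fewer than 5 UMIs summed over the 6 cell cycle genes Top2a, Mki67, Birc5, Ccna2, Cdk1 and Ube2c, at least 1 UMI of Cd8a plus Cd8b1, at least 1 UMI of Ccr7, fewer than 15 UMIs of Ccl5 and 0 UMIs of Dntt and of Ly6c2. These conditions selected 545 of 3702 filtered thymus cells (14.7%, 95% exact interval 13.6 to 15.9), out of 11125 filtered cells in all 6 libraries of the series. The study compared CD8 T cells of Pdcd1fl/fl mice, whose Pdcd1 gene is flanked by loxP sites, with those of Pdcd1 cKO mice, which carry the same floxed alleles together with E8I CD8-Cre, a driver active in cells of the CD8 lineage. All mice were adult C57BL/6 animals, and thymic cells were enriched with a CD8a+ T cell isolation kit before PIPseq v3 library preparation. Each genotype had 1 library from thymus, 1 from spleen and 1 from B16-OVA melanoma at day 12 after injection, the last pooled from several animals. Each thymus library represented 1 mouse of its genotype. With 1 library for each genotype no test of genotype was possible, and every interval below is a 95% exact interval that covers counting error only. Paired values are given in the order library labelled Pdcd1fl/fl, then library labelled Pdcd1 cKO.

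Thymocytes that pass positive selection on MHC class I become CD8 single-positive cells, switch off the recombination and terminal transferase genes, and move from cortex to medulla along ligands of the chemokine receptor CCR7. During medullary maturation they lose the surface protein encoded by Cd24a and the activation antigen CD69, gain MHC class I, and raise the transcription factor KLF2. KLF2 drives S1pr1, the sphingosine-1-phosphate receptor that guides mature thymocytes into blood.

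Pdcd1, the gene targeted in the cKO, lies on chromosome 1 at 93966027-93980312 (GRCm39, GENCODE annotation). In all filtered thymus cells it had 12 of 6389966 UMIs in the library labelled Pdcd1fl/fl, 1.88 CPM (0.970 to 3.28; counts scaled to the same total, CPM), and 131 of 19143524 in the library labelled Pdcd1 cKO, 6.84 CPM (5.72 to 8.12). Spleen libraries held 1 UMI (0.450 CPM) and 104 UMIs (11.7 CPM), and tumor libraries 717 UMIs (76.4 CPM) and 808 UMIs (102 CPM). In each tissue the library labelled Pdcd1 cKO thus had the higher level, which goes against the labels. UMIs were counted for the whole gene, and a transcript without the floxed part can still be counted, so these counts may check nothing about the deletion. Among the Ccr7-positive CD8 cells Pdcd1 had 0 of 311900 UMIs, which allows up to 11.8 CPM, and 6 of 2468482 UMIs, 2.43 CPM (0.892 to 5.29), each of the 6 in a different cell. The study reported loss of PD-1 in thymic CD8 cells of this model by flow cytometry, which RNA counts do not measure. Since the Pdcd1 counts did not separate the libraries as labelled, each direction between them below is a direction between 2 libraries as labelled.

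The gate held 78 of 1067 cells in the library labelled Pdcd1fl/fl, 7.31% (5.82 to 9.04), and 467 of 2635 cells in the library labelled Pdcd1 cKO, 17.7% (16.3 to 19.2). Applied in turn, the conditions on cell cycle genes, CD8 RNA, Dntt, Ccl5, Ly6c2 and Ccr7 left 593, 361, 198, 170, 104 and 78 cells, and 2075, 1467, 917, 748, 557 and 467 cells. Cycling cells, those with a cell cycle sum of 5 or more, made up 44.4% (41.4 to 47.5) and 21.3% (19.7 to 22.9) of filtered cells. The share of Ccr7-positive CD8 cells among the non-cycling cells was 13.2% (10.5 to 16.1) of 593 and 22.5% (20.7 to 24.4) of 2075. So the library with more cycling cells had the smaller share of these cells, and the gap was narrower when cycling cells were left out of the denominator. The remaining cells, each counted at the first condition it failed, were 21.7% and 23.1% without CD8 RNA, 15.3% and 20.9% Dntt-positive, 2.62% and 6.41% Ccl5-high, 6.19% and 7.25% Ly6c2-positive, and 2.44% and 3.42% with Ccr7 at 0. The selected cells had medians of 3437.5 UMIs (range 2713 to 14226) and 5031 UMIs (2839 to 11347), and of 1492 and 1688 genes. The gate reads raw UMIs, and with every cell thinned to 1000 UMIs the gate held 4.31% and 11.2%. No barcode was shared between the thymus libraries.

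**Figure D1:**
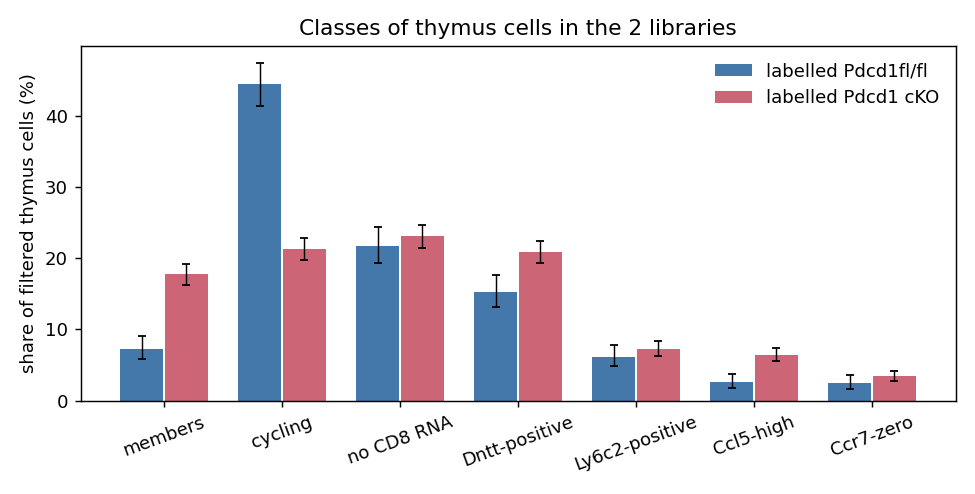
Share of filtered thymus cells (%, y axis) in each class of the gate (x axis) in the library labelled Pdcd1fl/fl (blue, 1067 cells) and the library labelled Pdcd1 cKO (red, 2635 cells); bars are shares and whiskers are 95% exact binomial intervals. The selected cells (first pair, called members) are at 7.31% and 17.7%, and cycling cells at 44.4% and 21.3%.

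Cells close to a threshold resembled those across it only in part. Ccr7 had a median of 2 and 5 UMIs a selected cell, up to 16 and 27, and 21 of the 78 and 52 of the 467 cells entered with a single Ccr7 UMI. Those cells had 114 and 174 CPM of S1pr1, against 10.7 and 112 CPM in the 26 and 90 cells that failed only at Ccr7. The 26 cells held 93827 UMIs in all, so their 10.7 CPM lies near the limit of counting and has no interval here. Dcn, a stromal proteoglycan gene at 0 in the cells with 1 Ccr7 UMI, was read in 1 of those 26 and 3 of those 90 cells. At the CD8 threshold, the 15 and 49 cells with 1 CD8 UMI had 196 and 188 CPM of S1pr1, and the 11 and 31 cells that lacked only CD8 RNA had 171 and 120 CPM. The 27 and 148 cells kept out by 1 Dntt UMI had 706 and 909 CPM of Ccr7 and 144 and 248 CPM of S1pr1, and the 15 and 80 cells kept out by 1 Ly6c2 UMI had 879 and 1011 CPM of Ccr7 and 189.6 and 260.3 CPM of S1pr1. These cells had met the Ccr7 condition, so only their S1pr1 level is free of the gate. For Ccl5, 0 and 2 cells sat at 10 to 14 UMIs and 1 cell in each library at 15 to 19. At the cell cycle threshold, 2 and 9 selected cells had a sum of 4, and 2 and 0 otherwise qualifying cells had a sum of 5.

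The label was read against Cd8b1, Ccr7, S1pr1 and Klf2, of which the gate had used the first pair. Cd8b1 (chromosome 6, 71299772-71315087), the CD8 beta chain, was at 795 CPM (699 to 900.5) and 724 CPM (691 to 759) in the selected cells and at 155 and 227 CPM in all other filtered thymus cells. Ccr7 (chromosome 11, 99035022-99045911) was at 769 CPM (675 to 873) and 1017 CPM (978 to 1058), against 118 and 187 CPM. S1pr1 (chromosome 3, 115504071-115508721), which the gate did not read, was at 212 CPM (164 to 269) and 227 CPM (208 to 246), against 41.5 and 73.1 CPM. Klf2 (chromosome 8, 73072726-73075502) was at 509.8 CPM (434 to 595) and 462 CPM (436 to 489.8), against 127 and 149 CPM. The gate itself raised Cd8b1 and Ccr7, by 2.36 and 1.68 and by 2.71 and 2.44 on the log2 scale, so only the others bear on the label. S1pr1 was higher by 2.35 and 1.63 and Klf2 by 2.01 and 1.64. These genes were not confined to these cells: Ly6c2-positive cells, which met the earlier conditions, had 189 and 241 CPM of S1pr1 and 620.1 and 479 CPM of Klf2. S1pr1 was at 26.7 and 20.6 CPM in cycling cells. After thinning to 1000 UMIs, 19.2% and 15.6% of selected cells held an S1pr1 UMI (unthinned 50% and 54.6%), against 4.01% and 2.50% of cycling cells, whose median depths were 6781.5 and 8656 UMIs. Klf2 was read in 47.4% and 33.8% of thinned selected cells (unthinned 75.6% and 78.8%), against 7.17% and 4.46% of cycling cells. Markers of semi-mature cells, Cd69, Ccr9, Cd24a and Nr4a1, were mixed. Cd69 and Ccr9 were at least 2-fold higher in the selected cells in both libraries, Cd24a was lower, and Nr4a1 was under 2-fold apart. A Cd69 UMI was read in 28.2% and 54.2% of selected cells, so not every marker bears out the name mature.

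Against all other filtered thymus cells, 6620 genes had at least 100 UMIs in each library's comparison, and genes were counted when at least 2-fold apart the same way in both libraries. By that rule 121 genes (1.83% of those tested) were higher and 565 (8.53%) lower in the selected cells; since the gate reads the same RNA, these are descriptions. With median-of-ratios scaling the counts were 231 and 360, and without the top 5% of cells by UMIs the higher count was 50. The median gene had a log2 ratio of -0.06 and -0.28. Apart from gate genes, the genes whose intervals lay farthest above 0 were Ifi27l2a, an interferon-induced gene, Tsc22d3, which encodes the glucocorticoid-induced leucine zipper GILZ, the GTPase gene Gimap6, Klf2, Evl, an actin regulator, Itgae and S1pr1. Apart from the gate genes Dntt, Ly6c2, Ube2c and Birc5, those farthest below 0 were the replication factor gene Pclaf, the granzyme gene Gzma, the mitotic genes Aurkb and Cdca8, Marcksl1 and Dnph1. When the comparison was made with non-cycling cells only, 3764 genes could be tested, and 20 were higher (0.531%) and 90 lower (2.39%), of which 20 and 81 were also in the first counts.

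Those 20 genes, named after their values were seen, were Ccr7, Cd8a, Cd8b1, Ccr9, Itgae, Itgb7, Gimap6, Ifi27l2a, Tsc22d3, Evl, Actn2, Ifngr2, Rgs10, Acp5, Arhgef12, Rab6b and 4 genes with provisional names. Itgae, which encodes the CD103 subunit of the E-cadherin-binding integrin, had 44.9 and 50.1 CPM in the other non-cycling cells and ratios of 1.51 (0.95 to 2.06) and 1.39 (1.18 to 1.59). Its partner Itgb7 had ratios of 1.43 and 1.01, and Ccr9, a receptor for a chemokine of thymus and gut, 1.67 and 1.01. Ifi27l2a stood at 96.1 and 210.2 CPM in those cells, with ratios of 1.65 (1.28 to 2.01) and 1.33 (1.23 to 1.43). S1pr1 and Klf2 stayed just short of 2-fold in 1 library, with ratios of 1.66 and 0.99 for S1pr1 and 1.11 and 0.99 for Klf2. Among the 90 lower genes were Cd24a, Arpp21, Stmn1, Marcksl1, Sox4 and Gzma, with ratios of -1.68 and -2.16 for Cd24a.

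Genes of egress and homing were next compared. Of 18 genes on that list, 15 passed the 100-UMI minimum, 7 were at least 2-fold higher in both libraries (Klf2, Cd69, S1pr1, Ccr9, Itgae, Itgb7 and, fixed by the gate, Ccr7) and 0 lower, with median log2 ratios of 1.72 and 0.88 beside -0.06 and -0.28 over all genes. Against the non-cycling cells alone, 4 of 15, Ccr7 again among them, were higher, with medians of 0.91 and 0.36 beside -0.04 and -0.16. Ccr9 (chromosome 9, 123507181-123613395) was at 160.3 CPM (119 to 211) and 179 CPM (163 to 197). This was above the Ly6c2-positive class at 30.8 and 87.2 CPM and the Ccl5-high class at 19.2 and 18.5 CPM. A Ccr9 UMI was read in 41.0% and 50.5% of selected cells. Itgae (chromosome 11, 72981409-73039917) stood at 128 CPM (91.6 to 175) and 131 CPM (117 to 146), with 88.6 and 99.1 CPM in Ly6c2-positive and 47.6 and 57.4 CPM in Dntt-positive cells. Cd69 (chromosome 6, 129244288-129252399), whose product opposes S1PR1 at the cell surface, was at 138 CPM (99.8 to 186) and 256 CPM (236 to 276), below the Ly6c2-positive class at 250.4 and 288 CPM. Il7r, the IL-7 receptor alpha chain, was at 109 and 115 CPM, and Foxo1, a transcription factor that acts on Il7r and Klf2 in naive T cells, at 189 and 153 CPM, both under 2-fold above the others in 1 library.

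**Figure D2:**
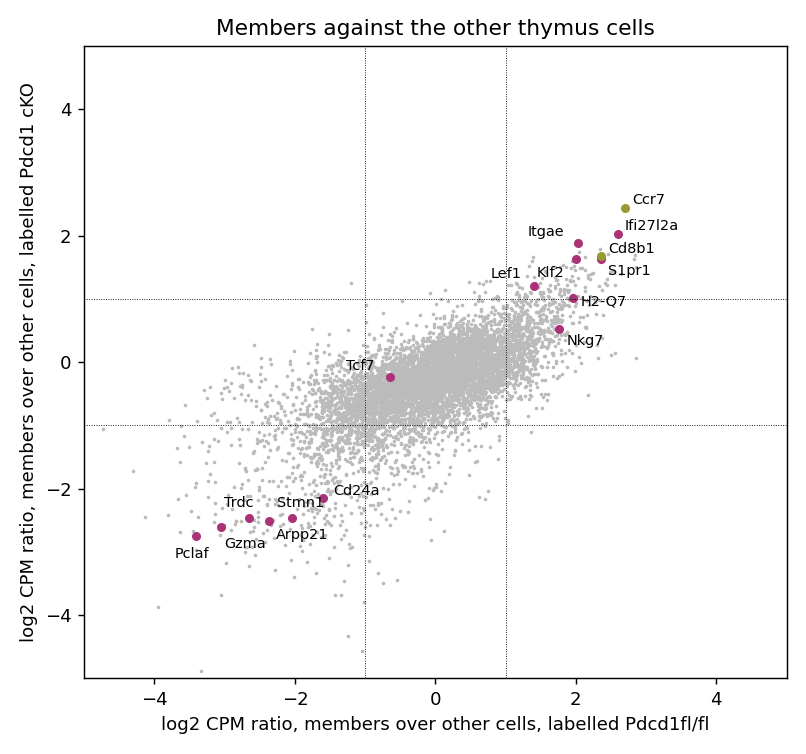
Log2 CPM ratio of selected over other filtered thymus cells in the library labelled Pdcd1fl/fl (x axis) against the library labelled Pdcd1 cKO (y axis); each dot is a gene with at least 100 UMIs in both comparisons (6618 inside the axes, 2 outside), olive dots are gate genes, purple dots other named genes, and dotted lines mark 2-fold. Ccr7 lies at 2.71 and 2.44, Ifi27l2a at 2.60 and 2.03, Klf2 at 2.01 and 1.64, and Cd24a at -1.60 and -2.16.

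Of 21 thymic maturation genes, 20 passed the minimum, and 7 were higher (Gimap6, H2-Q7, Slfn2, Dgka, Samhd1, Dapl1 and Gimap3) and 1 lower (Cd24a), with medians of 1.46 and 0.85. Against non-cycling cells 1 of 19 was higher and 1 lower, with medians of 0.88 and 0.33. Cd24a was at 96.2 CPM (64.9 to 137) and 67.7 CPM (57.8 to 78.7), against 292 and 302 CPM in the other cells, and after thinning was read in 7.69% and 7.92% of selected cells against 23.4% and 22.5% of cycling cells. The classical MHC class I genes were high but under 2-fold above the others in the library labelled Pdcd1 cKO: H2-K1 was at 1318 CPM (1193 to 1451.5) and 1539.8 CPM (1491 to 1589.6), with log2 ratios of 1.62 and 0.93. B2m, the class I light chain, was at 3562 and 4603 CPM, with ratios of 1.26 and 0.78. The nonclassical class I gene H2-Q7 was at 423 CPM (354 to 502) and 649 CPM (618 to 682), with ratios of 1.96 and 1.02. Cd24a was thus low in both libraries, while of the class I genes named here only H2-Q7 was 2-fold higher in both. Neither trait was particular to these cells. After thinning, H2-Q7 was read in 20.5% and 48.2% of selected, 33.3% and 46.6% of Ly6c2-positive and 32.1% and 50.9% of Ccl5-high cells. Cd24a was read in 15.2% and 4.71% of Ly6c2-positive and 0% and 7.10% of Ccl5-high cells. Against non-cycling cells H2-Q7 had ratios of 1.19 and 0.46. Dapl1 was at 83.4 and 89.5 CPM but came from 13 of 78 and 72 of 467 cells, and Cd55, a marker of late maturation, did not pass the minimum at 6 and 52 UMIs.

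Interferon-stimulated genes formed a further group. Of 16 genes 10 passed, 3 were higher (Ifi27l2a and Zbp1 among them) and 0 lower, with medians of 1.39 and 0.84; against non-cycling cells 1 of 6 was higher, with medians of 0.89 and 0.16. Ifi27l2a (chromosome 12, 103399975-103409950) was at 301 CPM (244 to 369) and 529 CPM (501 to 559), against 49.9 and 129 CPM in the other cells. By class it was at 23.1 and 26.5 CPM in cycling, 109.5 and 265 CPM in Dntt-positive and 146 and 389.9 CPM in Ly6c2-positive cells, below the selected cells in each library.

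Of 14 immature thymocyte genes 12 passed, and 6 were lower (Cd24a, Smarcc1, Arpp21, Mns1, Ptcra and the gate gene Dntt) and 1, Ccr9, higher, with medians of -0.69 and -1.56; against non-cycling cells 3 of 9 were lower and 1 higher, with medians of -0.84 and -0.88. Rag1, needed for receptor gene rearrangement, had 10 UMIs (32.1 CPM, 15.4 to 59.0) and 17 UMIs (6.89 CPM, 4.01 to 11.03), and Rag2 had 0 UMIs, which allows up to 11.8 and 1.49 CPM. Against non-cycling cells Rag1 had ratios of -0.51 (-1.62 to 0.42) and -2.53 (-3.32 to -1.83). The interval thus included 0 in the library labelled Pdcd1fl/fl. Cd8a (chromosome 6, 71350411-71356157) and Cd8b1, both read by the gate, were the 2 higher genes of 11 on the CD8 and CD4 lineage list, of which 7 passed, with medians of 1.30 and 0.36; against non-cycling cells they were again 2 of 6, with medians of 0.95 and 0.38. Cd4 had 0 UMIs, with the same limit of 11.8 CPM, and 11 UMIs (4.46 CPM). Zbtb7b, which specifies the CD4 lineage, had 0 and 2 UMIs, and Runx3, which specifies the CD8 lineage, was at 28.9 and 54.7 CPM.

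Of 15 genes of the T cell receptor complex and its proximal signaling all passed, and 1, Trac, the constant region of the alpha chain, was higher at 458 and 548 CPM, with medians of 0.65 and 0.33; against non-cycling cells 0 of 15 were higher, with medians of 0.58 and 0.11. Of 16 genes induced by receptor signaling 10 passed, and Cd69 and the NF-kappaB subunit gene Rel were higher, with medians of 0.67 and 0.25; against non-cycling cells 0 of 9 were, with medians of 0.11 and -0.15. Nr4a1, an immediate reporter of receptor signaling, was at 64.1 and 62.8 CPM, below the 78.8 and 79.4 CPM of the other cells. Its ratios against non-cycling cells were -0.45 (-1.19 to 0.22) and -0.15 (-0.42 to 0.10), with 0 inside both intervals. All 10 naive transcription factor genes passed, and Lef1, Klf2 and Bach2 were higher and Myb lower, with medians of 0.92 and 0.87; against non-cycling cells 0 were 2-fold apart, with medians of 0.66 and 0.57. Lef1 was at 593 CPM (511 to 685) and 513 CPM (485 to 542), while Tcf7, its partner in T cell identity, was at 237 and 200.5 CPM against 372 and 237 CPM in the other cells. Against non-cycling cells Tcf7 had ratios of -0.47 (-0.83 to -0.12) and 0.07 (-0.08 to 0.21).

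Of 18 cytotoxic effector genes 6 passed, of which Ctsw was higher and Gzma and the gate gene Ccl5 lower, with medians of 0.86 and 0.47; against non-cycling cells 0 were higher and 2 lower, with medians of 0.56 and 0.03. Nkg7 (chromosome 7, 43086497-43087678), which encodes a cytotoxic granule membrane protein, was at 759.9 CPM (666 to 863) and 442 CPM (417 to 469), against 223 and 307 CPM in the other cells and 1417 and 1649 CPM in Ccl5-high cells. After thinning it was read in 52.6% and 33.8% of selected cells (unthinned 74.4% and 78.6%) and in 10.8% and 8.21% of cycling cells. Gzma was at 70.5 and 42.9 CPM against 586 and 260.4 CPM, while Prf1, perforin, had 4 and 25 UMIs, and Gzmb 0 and 8. Against non-cycling cells, at 424 and 493 CPM of Nkg7, the selected cells were higher in the library labelled Pdcd1fl/fl, by 0.84 (0.63 to 1.05), and lower in the other, by -0.16 (-0.25 to -0.06). Of 11 memory-like genes 4 passed, with 0 higher and only the gate gene Ly6c2 lower and medians of 0.63 and -0.02, and against non-cycling cells again 0 higher and 1 lower, with medians of -0.02 and -0.53. Eomes, a memory transcription factor, had 0 UMIs, allowing up to 11.8 CPM, and 36 UMIs (14.6 CPM). Of 10 inhibitory receptor genes 4 passed, with Vsir higher, Havcr2 lower and medians of 0.68 and 0.05; against non-cycling cells 0 of 3 were 2-fold apart, with medians of 0.18 and -0.21. Of 9 survival genes 6 passed, with Birc3 higher and medians of 0.96 and 0.23; against non-cycling cells 0 of 6 were 2-fold apart, with medians of 0.45 and 0.06.

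Markers of other lineages were read too. With genes of other lineages required at 0, the gate held 6.28% and 14.6% of filtered cells. All 125 named ratios between libraries then stayed within their intervals, and 4 turned sign. The part of these markers in the results was not tested beyond that. The CD4 and regulatory T cell list had 8 of 8 genes read and a summed level of 276 and 184 CPM (191 and 297 CPM in the other thymus cells), led by Ikzf2, with Foxp3 at 0 and 1 UMI. Gamma-delta and innate-like genes, with the gamma constant genes spelled Trgc1, Trgc2 and Trgc4, summed to 144 and 84.7 CPM, against 539 and 526 CPM (7 of 8 read, led by Trdc over both libraries, Ncr1 at 0). B cell genes summed to 122 and 98.0 CPM, against 156 and 109 CPM (5 of 8, led by Ighm, with Cd79a and Ms4a1 among those at 0). Myeloid and dendritic genes summed to 96.2 and 149 CPM, against 156 and 125 CPM (6 of 10, led by Cst3, with C1qa, Fscn1, Ccl22 and Csf1r at 0). Erythroid genes summed to 0 and 6.48 CPM, against 0.329 and 10.9 CPM (3 of 5, led by Hbb-bs, with Hbb-bt and Alas2 at 0), and stromal and epithelial genes to 9.62 and 3.65 CPM, against 69.9 and 39.2 CPM (4 of 8, led by Epcam, with Psmb11, Krt5, Krt8 and Col1a1 at 0).

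Between libraries, 3367 genes had at least 100 UMIs over the selected cells, and 60 (1.78%) were at least 2-fold higher and 179 (5.32%) at least 2-fold lower in the library labelled Pdcd1 cKO. The balance depended on the scaling. The median log2 ratio over these genes was -0.33, and leaving mitochondrial, ribosomal protein and Malat1 UMIs out of the totals moved it by 0.23 to -0.10. With median-of-ratios scaling 148 genes were higher and 29 lower, and with the reduced totals 125 and 59. Ribosomal protein RNA made up 28.4% of UMIs in the selected cells of the library labelled Pdcd1fl/fl and 39.1% in those of the library labelled Pdcd1 cKO, against 26.1% and 32.5% in the other cells. Of 80 ribosomal protein genes 67 had ratios above 0 and 7 were at least 2-fold higher, with a median of 0.52. On the log2 scale, values relative to the median gene are 0.33 above the ratios given below. Counts of listed genes 2-fold apart are by CPM; relative to the median gene Cd69, Ifi27l2a, Runx3, Gata3 and Klrd1 would pass 2-fold too, all higher.

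The differences were shared in part with the rest of each library. Of the 60 higher genes 58 were measured in the other thymus cells, 53 had the same sign there, and 21 were at least 2-fold higher in both, 35% of the list in the selected cells and 23.9% of the 88 genes of the other cells. Of the 179 lower genes 113 had the same sign in the other cells, and 19 were at least 2-fold lower in both, 10.6% of this list and 20.9% of the 91 genes of the other cells. No share over all 3365 genes tested in both is given for these counts of signs, so they are descriptions only.

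By CPM none of 15 egress genes was 2-fold apart between libraries, with a median of 0.10. S1pr1 had a log2 ratio of 0.10 (-0.27 to 0.49), 0.43 relative to the median gene. Klf2 had -0.14 (-0.38 to 0.11), a direction that turned with the scaling to 0.19 relative to the median gene. Cd69 had a ratio of 0.89 (0.44 to 1.37), 1.22 relative to the median gene, and was read in 11.5% and 17.3% of thinned cells (unthinned 28.2% and 54.2%). The other thymus cells had 1.14 for Cd69, 0.82 for S1pr1 and 0.23 for Klf2.

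Id3 (chromosome 4, 135870808-135873066), an inhibitor of E protein transcription factors induced by receptor signaling, was the 1 gene of 8 tested on the receptor response list that was 2-fold apart. It had 7 UMIs in 6 cells, 22.4 CPM (9.02 to 46.2), and 273 UMIs in 156 cells, 111 CPM (97.9 to 125). The log2 ratio was 2.30 (1.24 to 3.63), or 2.63 relative to the median gene, against 0.86 in the other thymus cells. Thinned, 2.56% and 9.21% of selected cells held an Id3 UMI (unthinned 7.69% and 33.4%). The list's median was 0.03. The same gene was the 1 of 10 naive transcription factor genes past 2-fold, in a list with a median of -0.27, where Bach2, a repressor that maintains naive cells, had -0.64 (-0.93 to -0.34), or -0.31 relative to the median gene. Lef1, Satb1 and Tcf7 had -0.21, -0.30 and -0.24, directions that turned with the scaling.

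Ratios of interferon and class I genes were also above that of the median gene. Of 11 listed interferon-stimulated genes tested 0 were 2-fold apart before scaling to the median gene, with a median of 0.24; Ifi27l2a had 0.81 (0.51 to 1.13), or 1.14 relative to the median gene. Ifi27l2a was read in 24.4% and 34.0% of thinned cells (unthinned 53.8% and 69.8%). Of 20 maturation genes 0 were 2-fold apart, with a median of 0.07; H2-Q7 had 0.62 (0.36 to 0.88), B2m 0.37 (0.28 to 0.46) and H2-K1 0.22 (0.08 to 0.38). In the other thymus cells these genes differed more, with 1.37 for Ifi27l2a, 1.57 for H2-Q7, 0.86 for B2m and 0.92 for H2-K1.

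Nkg7 went the other way, with a ratio of -0.78 (-0.98 to -0.57), or -0.45 relative to the median gene, while in the other thymus cells it was 0.46. Thus the library labelled Pdcd1 cKO had less Nkg7 RNA in the selected cells and more in the other cells as a pool. By the share of thinned cells with an Nkg7 UMI, a measure other than CPM, it did not have more in each class. Thinned, Nkg7 was read in 59.1% and 36.1% of Ly6c2-positive cells and 26.7% and 17.8% of cells without CD8 RNA. The shares were 10.8% and 8.21% of cycling and 78.6% and 75.7% of Ccl5-high cells. Dntt-positive cells, at 22.1% and 32.2%, and cells with Ccr7 at 0, at 23.1% and 25.6%, had the opposite direction. By CPM, given above, Ccl5-high cells had the higher Nkg7 level in the library labelled Pdcd1 cKO. In the library labelled Pdcd1fl/fl the Ccl5-high class had 28 cells and the class with Ccr7 at 0 had 26. Their small gaps, given without intervals, thus show no direction. The part of class shares in the pooled ratio was not tested. None of 6 cytotoxic genes was 2-fold apart, with a median of -0.17. Vsir, the gene of the inhibitory receptor VISTA, was at 160.3 CPM (119 to 211) and 80.6 CPM (69.8 to 92.6), a ratio of -0.99 (-1.45 to -0.51) against 0.21 in the other cells, and 0 of 2 inhibitory receptor genes tested passed 2-fold, with a median of -0.35. The remaining lists likewise had 0 genes 2-fold apart by CPM, with medians of 0.02 over 6 CD8 and CD4 lineage genes, -0.51 over 5 immature genes, -0.39 over 15 receptor complex genes, -0.43 over 3 memory-like genes and -0.30 over 6 survival genes. Of the other-lineage lists, Cd74, the invariant chain of MHC class II, was 2-fold apart, at 25.6 CPM (11.1 to 50.5) and 72.1 CPM (61.9 to 83.5), with a ratio of 1.49 (0.48 to 2.73) in 7 and 81 cells; the part of free RNA or class II-bearing cells was not tested.

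**Figure D3:**
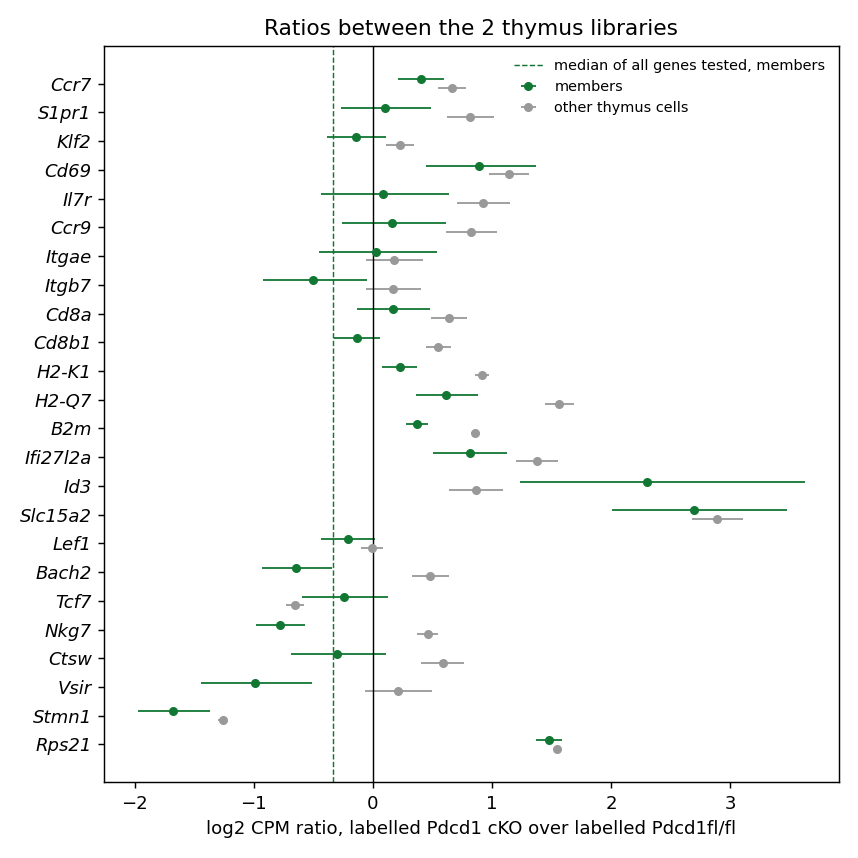
Log2 ratio of CPM between the libraries, positive where the one labelled Pdcd1 cKO is higher (x axis), for named genes (y axis) in the selected cells (green) and the other thymus cells (gray); whiskers are 95% exact intervals from counting error and the dashed line is the median of genes tested in the selected cells, -0.33. Id3 lies at 2.30 against 0.86, Nkg7 at -0.78 against 0.46, and S1pr1 at 0.10 against 0.82; the direction of Klf2, Cd8b1, Lef1, Tcf7 and Ctsw in the selected cells turns with the scaling.

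The genes with intervals farthest above 0 between libraries were Slc15a2, Ppp1r3c, Rps21, Id3, Lepr, Tpt1, Rpl12, Steep1, Rpl30 and Ifi47. Slc15a2 (chromosome 16, 36570475-36605334), a peptide transporter gene, had 54.5 CPM (31.8 to 87.3) and 352 CPM (329 to 377), a ratio of 2.69 (2.01 to 3.48) beside 2.89 in the other cells. Lepr, the leptin receptor gene, had 2 UMIs in 1 cell and 128 UMIs in 86 cells, a ratio of 3.02 (1.13 to 6.08) beside 4.33. The ribosomal protein genes Rps21, Rpl12 and Rpl30 and the translation-linked Tpt1 had ratios of 1.48, 1.17, 1.17 and 1.20 beside 1.54, 1.05, 1.09 and 1.17 in the other cells, and Steep1 1.38 beside 1.04. Ifi47, an interferon-induced GTPase gene, had 35.3 and 130.4 CPM, 1.89 (1.03 to 2.90) against 0.72. Of these 10, Slc15a2, Lepr and Rps21 thus differed at least as much in the rest of the thymus libraries. Ppp1r3c had 0 and 113 UMIs, and all 113 came from 1 barcode.

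Farthest below 0 were Tbc1d22b, Spidr, Mosmo, Bc1, Stmn1, Slc9a9, Acsbg1, Spag9, Dnajc19 and Gpx1. Tbc1d22b was at 786 CPM (690.2 to 890.3) and 220.4 CPM (202 to 239.7), a ratio of -1.83 (-2.05 to -1.61) against -0.79 in the other cells. Spidr and Bc1 had ratios of -1.78 and -1.71. In the library labelled Pdcd1fl/fl, Tbc1d22b, Spidr and Bc1 were read in 41, 49 and 41 of the 78 cells. They had at most 37, 37 and 33 UMIs in 1 cell. Stmn1, which encodes a microtubule regulator of dividing cells, was at 417 CPM (348 to 495) and 130.4 CPM (117 to 145), a ratio of -1.68 (-1.97 to -1.37) against -1.26. Slc9a9 and Spag9 had ratios of -1.54 and -1.55 in the selected cells but 0.65 and 0.32 in the others. Gpx1, a glutathione peroxidase gene, had -1.32 against -0.71.

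S1pr1 and Cd69, which act against each other in thymic exit, were also read cell by cell, where 0 UMIs at this depth does not show a cell without the RNA. S1pr1 was read in 39 of 78 cells (50%, 38.5 to 61.5) and 255 of 467 (54.6%, 49.96 to 59.2), and Cd69 in 22 (28.2%, 18.6 to 39.5) and 253 (54.2%, 49.5 to 58.8). Both were read in 11 and 141 cells, S1pr1 alone in 28 and 114, Cd69 alone in 11 and 112, and neither in 28 and 100. Splits by a UMI also follow depth: S1pr1-positive cells had median UMIs of 3879 and 5383, and the others 3254 and 4786. Over 7 such splits, S1pr1, Cd69, Ccr9 and Ccr7 among them, 28 of 230 ratios in the library labelled Pdcd1fl/fl and 50 of 237 in the library labelled Pdcd1 cKO had an interval without 0, and those named here were chosen after their values were seen.

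In the deeper library, labelled Pdcd1 cKO, S1pr1-positive cells had 527 CPM of Klf2 against 375 CPM, a log2 ratio of 0.49 (0.31 to 0.67). Cd69 had a ratio of -0.31 (-0.53 to -0.07), although it was read in 141 of 255 S1pr1-positive and 112 of 212 S1pr1-negative cells. The S1pr1-positive cells also had less Id3, at -0.39 (-0.74 to -0.03), and less Itm2a, a gene raised by positive selection, at -0.87 (-1.49 to -0.26). In the library labelled Pdcd1fl/fl the Cd69 ratio was 0.55 (-0.41 to 1.56). Itm2a in that library was at 45.7 CPM in S1pr1-positive against 36.5 CPM in S1pr1-negative cells, and Id3 at 11.4 against 36.5 CPM. There Klf2 had -0.08 (-0.55 to 0.39), with Ifi27l2a at 394 CPM in S1pr1-positive against 183 CPM in S1pr1-negative cells, a ratio of 1.11 (0.43 to 1.83), and Nkg7 at 577 against 993 CPM, a ratio of -0.78 (-1.17 to -0.40). The deeper library had no such difference, with Ifi27l2a at 529 CPM on both sides, a ratio of 0.00 (-0.16 to 0.16), and Nkg7 at 443 against 442 CPM, a ratio of 0.00 (-0.17 to 0.18). Comparing cells with S1pr1 alone to those with Cd69 alone, Ifi27l2a was higher in both libraries, by 1.59 (0.27 to 3.28) and 0.43 (0.19 to 0.67). In the library labelled Pdcd1 cKO this comparison also had Klf2 at 0.37 (0.12 to 0.62), against -0.67 (-1.32 to 0.02) in the other library, and Id3 at -0.85 (-1.41 to -0.31).

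Cells with at least 3 Ccr7 UMIs numbered 36 and 355. Against cells with 1 or 2 they had Ifi27l2a ratios of 0.64 (0.01 to 1.29) and 0.43 (0.21 to 0.65). In the deeper library Itgae was at 148 against 63.4 CPM, a ratio of 1.23 (0.70 to 1.80), and 0.41 with an interval that included 0 in the other library. Ccr9-positive cells of the library labelled Pdcd1 cKO had more Itgae, at 0.59 (0.26 to 0.93), and more Ifi27l2a, at 0.47 (0.31 to 0.63), than Ccr9-negative cells. In the library labelled Pdcd1fl/fl, Ccr9-positive cells had 813 CPM of Lef1 against 435 CPM, a ratio of 0.90 (0.47 to 1.34). There Itgae was at 130 against 127 CPM and Ifi27l2a at 368 against 253 CPM. Lef1 in the library labelled Pdcd1 cKO was at 541 against 482 CPM.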

How the data were processed

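Raw UMI counts for 32227 genes were deposited by the authors for each of 6 PIPseq v3 libraries; the authors processed reads with the PIPseq pipeline against GRCm39 and used Seurat 4.3.0 downstream. Their cell limits (500 genes, 1000 UMIs, 20% mitochondrial) left 1067 of 1067 and 2635 of 2674 barcodes in the thymus libraries labelled Pdcd1fl/fl and Pdcd1 cKO, of 6389966 and 19143524 UMIs. UMIs were summed over cells and scaled to CPM; intervals were exact (Poisson, conditional binomial, Clopper-Pearson, 95%), ratios to a count of 0 used a floor of 3 counts, and no test was run. Genes needed 100 UMIs and were counted from 2-fold. Named genes were Pdcd1, gate genes, at most 8 members of each of 18 lists (204 genes; most UMIs, plus any 2-fold apart) and the 10 genes in each direction whose intervals lay farthest from 0, without predicted genes. Il7r, Cd55, Rag1, Rag2, Gzmb, Fscn1 and Csf1r were named outside this rule, as were genes of the non-cycling, within-cell and spleen comparisons. Cells and lists were chosen with earlier results of these data known. Alternatives were thinning to 1000 UMIs (seed 7), stricter conditions on Ccr7, CD8, Cd4, other lineages and cell quality, removal of the top 5% of cells by UMIs, other scalings, other minimums and, added after seeing the data, leaving out cycling cells. No doublets were removed. Functions were tested on simulated data. Coordinates came from the GENCODE annotation of GRCm39. Python 3.11.15, numpy 2.4.6, scipy 1.17.1, pandas 2.3.3 and matplotlib 3.10.9 were used.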

Additional observations from a re-analysis of the deposited data

How the results depend on the processing

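The share of selected cells, 7.31% and 17.7% in the libraries labelled Pdcd1fl/fl and Pdcd1 cKO, became 4.31% and 11.2% with the gate applied after thinning to 1000 UMIs, 5.34% and 15.7% with Ccr7 at 2 UMIs or more, and 13.2% and 22.5% without cycling cells, an alternative added after seeing the data. Only the share in the library labelled Pdcd1 cKO moved past its interval with 2 CD8 UMIs (15.9%), with genes of other lineages at 0 (14.6%), and with stricter limits on UMIs and mitochondrial share (20.01%). Against other thymus cells, the 121 higher and 565 lower genes became 231 and 360 with median-of-ratios scaling, 54 and 329 with a minimum of 300 UMIs, where 3109 genes were tested, and 20 and 90 without cycling cells, where 3764 were. The higher count fell to 50 without the top 5% of cells by UMIs. Between libraries, the 60 higher and 179 lower genes became 148 and 29 with median of ratios, 125 and 59 with totals free of mitochondrial, ribosomal protein and Malat1 UMIs, 178 and 468 with a minimum of 50 UMIs (5617 tested), and 18 and 18 with a minimum of 300 (1063 tested). Minimums change how many genes are tested and scalings move every ratio together; beyond that the cause was not tested. Of 125 named genes, the ratio between libraries stayed within its interval for 85 with median of ratios, 100 with the reduced totals, 87 with the thinned gate, and 125 with each of the 6 other conditions on cells. Those outside lay above it, except 8 with the thinned gate. The sign of the ratio turned for 31 genes with median of ratios, 19 with the reduced totals, 21 with the thinned gate, and 1 to 14 with the other conditions. Ratios against other thymus cells were taken gene by gene only without cycling cells, and ratios within the selected cells under no alternative. No paired analysis was possible because each genotype had 1 library. With 78 cells and 311900 UMIs, the library labelled Pdcd1fl/fl limits most ratios; library and genotype cannot be told apart.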

Other observations

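The same gate was applied to the spleen libraries, where it held 109 of 1478 filtered cells (7.37%, 6.09 to 8.83) labelled Pdcd1fl/fl and 380 of 4928 (7.71%, 6.98 to 8.49) labelled Pdcd1 cKO, at median depths of 1334 and 1626.5 UMIs. In tumors it held 36 of 456 (7.89%) and 6 of 561 (1.07%). Ccr7, which the gate requires in every cell, was at 997 and 999.8 CPM in the spleen cells, and S1pr1, which it does not read, at 274 and 208 CPM, log2 ratios of spleen over thymus of 0.37 and -0.13. The genes named here were picked after their values were seen. Ccr9 was lower, at 40.8 and 31.9 CPM, ratios of -1.97 (-3.36 to -0.83) and -2.49 (-3.20 to -1.86), and Itgae at 11.7 CPM from 2 UMIs and 30.3 CPM, ratios of -3.46 (-6.55 to -1.51) and -2.11 (-2.84 to -1.46). Itgb7, the partner of Itgae, had ratios of -0.34 (-1.12 to 0.39) and 0.66 (0.34 to 0.96). Ifi27l2a, among the leading genes of the thymic cells, was at 46.6 and 92.5 CPM in spleen, with ratios of -2.69 and -2.52.

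Several genes were higher in the spleen cells of this gate. Klf2 reached 1143 and 1041 CPM, ratios of 1.16 (0.86 to 1.48) and 1.17 (1.03 to 1.31). Dapl1 was at 624 and 537 CPM, ratios of 2.90 and 2.58, and Cd55 at 75.8 and 68.3 CPM, ratios of 1.98 and 1.70. Ccl5 was at 1755 and 2149.7 CPM, under the gate's limit of 15 UMIs a cell. Cd69 was higher too, at 402 and 736 CPM. Because the gate reads raw UMIs, its limits on Ccl5 and Ly6c2 are looser at the lower spleen depth. Among memory-like genes, Il2rb had ratios of 1.48 and 2.16 and Klrd1 2.75 and 1.59, while Itga4 had -0.46 and 0.15. The gated spleen cells may thus be another mix of cells, and its part in these values was not tested. Spleen and thymus libraries differ in depth and in B cell RNA: Igkc was at 105 and 566 CPM in these spleen cells, and its part in the differences was not tested. Between the spleen libraries, Cd69 had a log2 CPM ratio of 0.87 (0.50 to 1.26), near its 0.89 in thymus. Nkg7 was at 0.31 (0.06 to 0.57) and Rps21 at -0.39 (-0.55 to -0.24). By CPM both were opposite in direction to the thymic cells, at -0.78 and 1.48. No spleen ratio was taken relative to a median gene. Whether the Nkg7 direction in spleen turns with the scaling was therefore not tested.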
